A study of Mus musculus with 21 samples.

Results

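The nuclear histidine tRNAs of mouse brain were followed across cerebrum and cerebellum, in mice with a Polr3a mutation and in wildtype mice. Members were all rows of both count tables named His-GTG that are not marked as mitochondrial, which gave 3 rows (His-GTG-1-1, His-GTG-2 and His-GTG-3-1) of 187 nuclear rows in cerebrum and 186 in cerebellum. The family was chosen by its measured level, which is high in wildtype cerebellum beside wildtype cerebrum, so its wildtype tissue values are given as a description, without a test. Tests were kept to mutant libraries, which that choice did not use, and to comparisons of genotype, which share the wildtype libraries with it.

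Animals were C57BL/6J mice, and all of them, wildtype included, received tamoxifen, which induces recombination in this model, at postnatal day 28. Frozen tissue dates from day 42. Libraries made with QuantM-tRNA-seq numbered 4 mutant (2 male, 2 female) and 6 wildtype (4 male, 2 female) for cerebrum, and 5 mutant (2 male, 3 female) and 6 wildtype (4 male, 2 female) for cerebellum. The labels name neither the allele, the driver of the recombinase nor the cells that recombine, and they do not say that each library is a separate animal, so p-values measure the spread between libraries. A tRNA library contains no messenger RNA, so neither the tissue nor the mutation could be checked against marker genes. In bulk tissue, fewer cells of a type and less RNA per cell cannot be told apart.

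Histidine tRNA reads the codons CAC and CAU and is charged by histidyl-tRNA synthetase. It is unusual in that an extra guanosine is added to its 5′ end after transcription, by the enzyme THG1L, and the synthetase recognises that base. Inherited defects of THG1L are known to cause a recessive cerebellar ataxia. RNA polymerase III, whose largest subunit is Polr3a, transcribes nuclear tRNA genes from promoter elements inside the gene, the A box and the B box. The mitochondrial genome encodes its own histidine tRNA, made by a separate polymerase. Row names give the amino acid, the anticodon and an isodecoder number, an isodecoder being a sequence that differs from its sisters outside the anticodon.

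RefSeq places 10 nuclear histidine tRNA genes with this anticodon on the GRCm38 assembly (the same build as mm10), each 72 bases long, 3 on chromosome 2, 6 on chromosome 3 and 1 on chromosome 4. Those on chromosome 3 lie between 96410069 and 96500437, and those on chromosome 2 between 122375494 and 122378039. No source used here pairs these genes with the isodecoder rows. For n-THgtg7, the first 62 bases fall in the promoter window of a neighbouring gene, BC107364, at chr3:96452495-96452556 on the plus strand. They are shown to make the anticodon and the internal promoter visible, beside the whole mitochondrial gene mt-Th (GENCODE M21, chrM:11546-11612, plus strand). Capitals mark the anticodon in the middle and, in the nuclear gene, the start of the B box at its right.
n-THgtg7: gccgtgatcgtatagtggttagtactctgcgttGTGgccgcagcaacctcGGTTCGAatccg
mt-Th: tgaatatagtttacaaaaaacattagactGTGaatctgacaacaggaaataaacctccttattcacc

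The anticodon GTG sits at bases 34 to 36 of the nuclear gene and at bases 30 to 32 of the mitochondrial gene, counted from the 5′ end. The B box was searched by its first letters, GGTTCGA, which occupy bases 51 to 57 of n-THgtg7. The same letters, on either strand, occur in 0.91% of 32851 promoter windows of 300 bases. They were not found in the 67 bases of mt-Th read 5′ to 3′.

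Counts of tRNA reads per library ran from 4353056 to 7588902 in cerebrum. In cerebellum 6 libraries (mutant 1 and wildtype 1, 2, 3, 4 and 6) held 1612754 to 2272675 counts, and 5 libraries (mutants 2 to 5 and wildtype 5) held 4831721 to 7110313. Depth and genotype therefore nearly coincide in cerebellum, and in wildtype libraries depth also goes with tissue. Mitochondrial tRNAs made up 10.4% to 11.7% of tRNA counts in wildtype cerebrum, 12.8% to 15.7% in mutant cerebrum, 12.5% to 14.4% in wildtype cerebellum and 13.96% to 21.2% in mutant cerebellum. A bacterial spike-in took between 0.222% and 0.374% of each cerebrum library and between 0.401% and 1.08% of each cerebellum library. Levels below are CPM (counts divided by the library total, per 1000000) after TMM scaling, computed here over all 21 libraries on a common scale.

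Nuclear histidine tRNA, summed over the 3 isodecoders, was the nuclear anticodon that stood highest in wildtype cerebellum relative to wildtype cerebrum. In wildtype cerebrum the total ran from 707 to 1197 CPM, with a median of 974 and a mean of 953 ± 170.4 (SD, n = 6). In wildtype cerebellum it ran from 2815 to 4022 CPM, with a median of 3313 and a mean of 3326 ± 431 (SD, n = 6). The groups did not overlap. As a description of the values that chose the family, the fitted difference was 1.85 on the log2 scale, 3.60-fold, rank 1 of 50 nuclear anticodons. The family took 0.0995% ± 0.0183 (SD, n = 6) of nuclear tRNA counts in wildtype cerebrum and 0.438% ± 0.073 (SD, n = 6) in wildtype cerebellum.

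In the mutant libraries, too, the total was higher in cerebellum. In mutant cerebrum the total was 696, 899, 1195 and 1123 CPM in mutants 1 to 4. In mutant cerebellum it was 3428, 3742, 3564, 4798 and 3234 CPM in mutants 1 to 5. Every mutant cerebellum library lay above every mutant cerebrum library. How many other anticodons separated the tissues as fully was not counted. The means were 978 ± 227 CPM (SD, n = 4) in cerebrum and 3753 ± 613 CPM (SD, n = 5) in cerebellum, and the total was higher in cerebellum by 2.04 ± 0.18 (SE) on the log2 scale, 4.12-fold (edgeR quasi-likelihood test, adjusted p = 3.79e-11 over 72 anticodons).

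Many other tRNAs also differed between the mutant tissues: 80.6% of all anticodon totals passed and 37.5% were higher in cerebellum, so passing the test was common in this comparison. By size, histidine had rank 1 of 50 nuclear anticodons. The next was Val-AAC, named after its value was seen, at 1.26 ± 0.16 (SE), and the median over all 72 anticodon totals was −0.06. Among libraries with over 4000000 counts, a selection made after seeing the data, the difference was 2.11 (edgeR adjusted p = 1.89e-11). Scaled to the spike-in row, it was 0.80 ± 0.28 (SE, edgeR adjusted p = 0.00612), with the median anticodon moved to −1.23. Tissue and deposited table cannot be told apart in this comparison. The fit treated libraries as independent, although same-numbered mutant libraries had the same sex in both tissues and may share an animal.

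**Figure D1:**
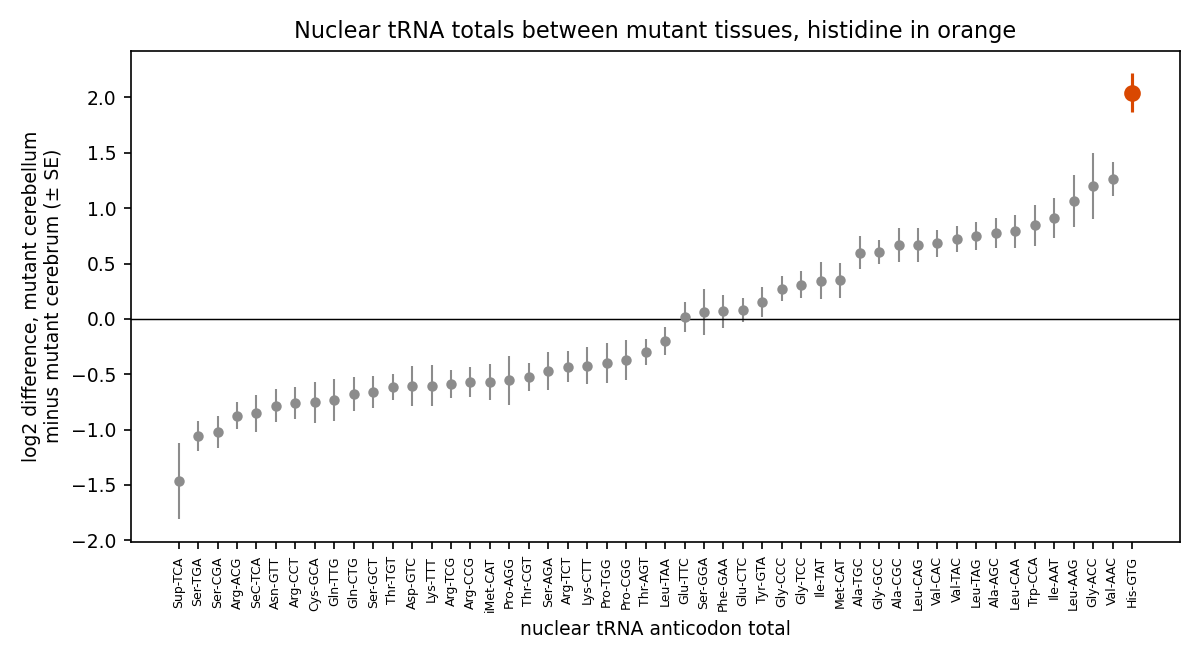
Log2 difference between mutant cerebellum and mutant cerebrum (y axis, ± SE of the edgeR fit) for 50 nuclear anticodon totals, in order of size (x axis). The histidine total, in orange, is the highest at 2.04, and the next, Val-AAC, is at 1.26.

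His-GTG-2 carried nearly all of the family. In mutant cerebrum it stood at 692, 889, 1186 and 1115 CPM, and in mutant cerebellum at 3323, 3641, 3445, 4702 and 3162 CPM. The groups were far apart, with a mean of 970.2 ± 225 CPM (SD, n = 4) against 3655 ± 611 CPM (SD, n = 5). The difference was 1.91 ± 0.17 (SE) on the log2 scale (edgeR adjusted p = 5.02e-10 over 204 rows), rank 6 of 182 nuclear rows. Wildtype libraries ran from 701 to 1184 CPM in cerebrum (median 961) and from 2744 to 3895 CPM in cerebellum (median 3220.4).

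His-GTG-1-1 is a rare isodecoder with few counts in cerebrum and many more in cerebellum. In mutant cerebrum it had 11, 40, 22 and 20 counts, which is 2.04, 6.83, 4.66 and 4.50 CPM. In mutant cerebellum it had 193, 429, 480, 433 and 375 counts, which is 86.7, 79.5, 86.1, 75.2 and 50.3 CPM. The lowest cerebellum library was thus several times above the highest cerebrum library. It was higher in mutant cerebellum by 4.05 ± 0.33 (SE) on the log2 scale, 16.5-fold (edgeR adjusted p = 1.47e-10), rank 1 of 182 nuclear rows. Wildtype libraries ran from 2.86 to 12.7 CPM in cerebrum and from 55.9 to 109.7 CPM in cerebellum, a fitted log2 difference of 3.50, given without a test.

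His-GTG-3-1, the rarest of the family, followed the same direction. Mutant cerebrum libraries held 10, 20, 25 and 17 counts, or 1.86, 3.42, 5.30 and 3.82 CPM. Mutant cerebellum libraries held 39, 117, 182, 122 and 163 counts, or 17.5, 21.7, 32.6, 21.2 and 21.9 CPM. Again no library of the tissues overlapped. How many of the 204 rows separated the tissues as fully was not counted, and 148 of them passed in either direction. The log2 difference was 2.69 ± 0.29 (SE, edgeR adjusted p = 9.52e-09), 6.46-fold and rank 2 of 182 nuclear rows. All 3 members were therefore higher in mutant cerebellum, against 35.8% of all rows tested, and each passed with any single mutant library left out. Scaled to the spike-in row, the differences were smaller: 2.92 for His-GTG-1-1, 0.77 for His-GTG-2 and 1.604 for His-GTG-3-1. Each passed on that scale, where 150 of 204 rows did so in either direction and the median over all rows was −1.09. In wildtype libraries His-GTG-3-1 averaged 4.43 ± 1.51 CPM (SD, n = 6) in cerebrum and 20.5 ± 5.35 CPM (SD, n = 6) in cerebellum.

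**Figure D2:**
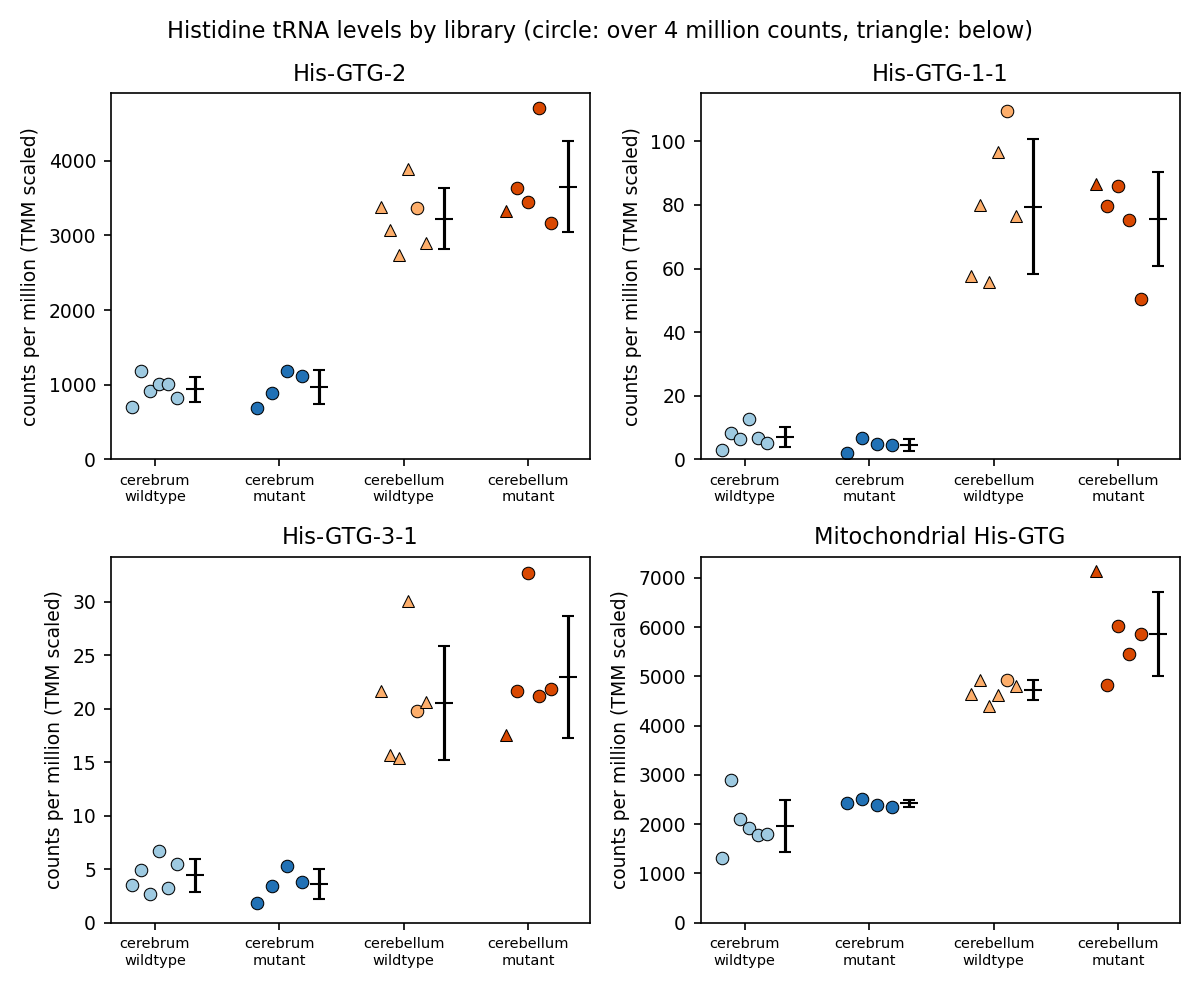
Level of each nuclear histidine isodecoder and of mitochondrial His-GTG (y axis, TMM-scaled CPM) in the 4 groups (x axis), a point per library (circles over 4000000 counts, triangles below), with the mean and SD beside each group. His-GTG-1-1 lies between 2.04 and 12.7 in all cerebrum libraries and between 50.3 and 109.7 in all cerebellum libraries, and the genotypes overlap within each tissue for all 3 nuclear isodecoders.

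Ordered by mean total, the groups ran from wildtype cerebrum (953 CPM) through mutant cerebrum (978 CPM) and wildtype cerebellum (3326 CPM) to mutant cerebellum (3753 CPM). Neighbours of the same tissue overlapped and did not differ beyond their spread. The step between tissues was the only place where neighbouring groups were separate. That step ends at wildtype cerebellum, whose high level chose the family, so it is a description only. The order of the cerebrum groups holds for the CPM means, while the fitted log2 difference was −0.10.

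The make-up of the family was compared between tissues as well. His-GTG-1-1 was 0.294%, 0.760%, 0.390% and 0.400% of nuclear histidine counts in mutant cerebrum, and 2.53%, 2.13%, 2.42%, 1.57% and 1.56% in mutant cerebellum. All 5 cerebellum libraries lay above all 4 cerebrum libraries. The difference was 1.58 percentage points (exact permutation test, two-sided, p = 0.0159, as small as this design can reach, adjusted p = 0.0714 over 9 share tests), so it did not pass after adjustment. These shares do not depend on how libraries are scaled.

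His-GTG-2 made up 99.2% ± 0.243 (SD, n = 4) of the family in mutant cerebrum and 97.3% ± 0.549 (SD, n = 5) in mutant cerebellum, with no overlap (exact permutation p = 0.0159, adjusted p = 0.0714). His-GTG-3-1 was at 0.358% ± 0.0738 (SD, n = 4) and 0.625% ± 0.184 (SD, n = 5), and here 4 of 5 cerebellum libraries lay above all cerebrum libraries (exact permutation p = 0.0317, adjusted p = 0.0952). The shares together make up the whole family in every library, so their tests are not independent of each other. Wildtype means were 0.716% ± 0.275 (SD, n = 6) in cerebrum and 2.38% ± 0.508 (SD, n = 6) in cerebellum for His-GTG-1-1, and 0.471% and 0.612% for His-GTG-3-1. No source used here says how reads that match more than 1 isodecoder were assigned, so the counts of both rare rows are uncertain.

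**Figure D3:**
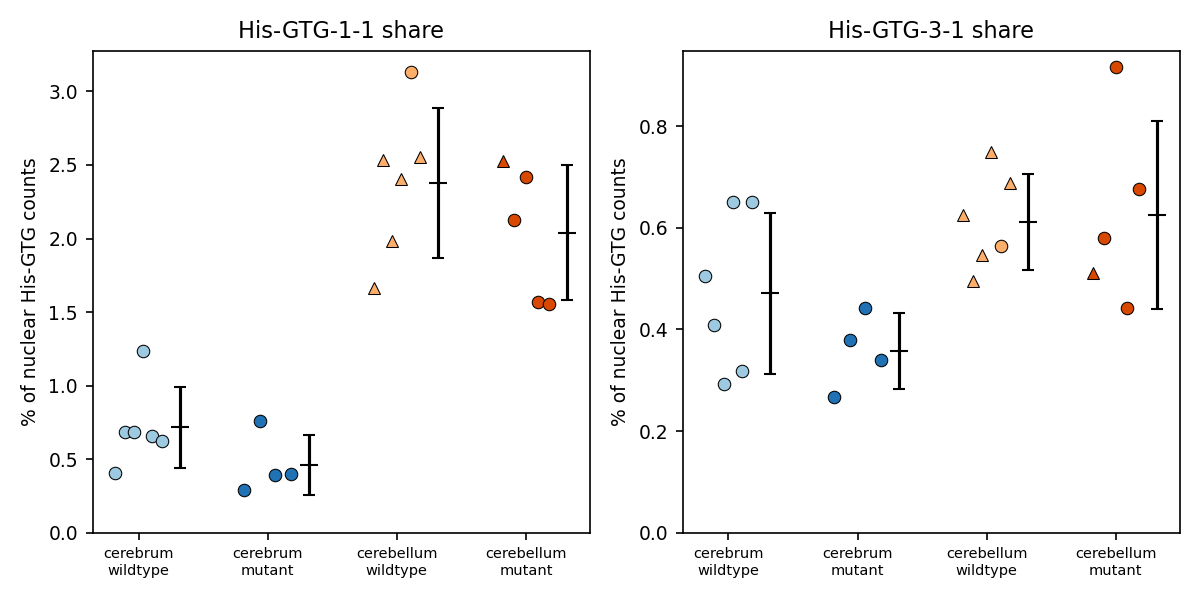
Share of nuclear histidine tRNA counts (y axis, percent) held by His-GTG-1-1 (left) and His-GTG-3-1 (right) in the 4 groups (x axis), a point per library (circles over 4000000 counts, triangles below), with the mean and SD beside each group. The share of His-GTG-1-1 stays at or below 1.23% in every cerebrum library and at or above 1.56% in every cerebellum library.

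Between the genotypes of cerebrum no difference in nuclear histidine tRNA was detectable relative to the rest of the tRNA pool. The total was 978 ± 227 CPM (SD, n = 4) in mutants and 953 ± 170.4 CPM (SD, n = 6) in wildtype, and the ranges overlapped. The log2 difference was −0.10 ± 0.16 (SE, edgeR adjusted p = 0.876 over 72 anticodons), where 11.1% of anticodon totals passed. Its sign is opposite to that of the CPM means. Totals were fitted with TMM factors from anticodon totals of the cerebrum libraries, whereas CPM used factors from isodecoder rows of all 21 libraries. His-GTG-2, fitted on isodecoder rows of cerebrum, also had opposite signs: CPM means of 970 in mutants and 941 in wildtype, and a fitted −0.03. In the joint fit of all 21 libraries the total was at −0.14 and His-GTG-2 at 0.043. What set the sign was not tested further. Of the isodecoders, 0 of 3 passed, against 19.7% of the 208 rows tested.

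His-GTG-2 differed by −0.03 ± 0.16 (SE, edgeR adjusted p = 0.943) between the genotypes of cerebrum. His-GTG-1-1 was at 4.51 ± 1.96 CPM (SD, n = 4) in mutants and 7.01 ± 3.30 CPM (SD, n = 6) in wildtype, a log2 difference of −0.69 ± 0.35 (SE, edgeR adjusted p = 0.179). His-GTG-3-1 was at 3.60 ± 1.41 and 4.43 ± 1.51 CPM, a difference of −0.40 ± 0.33 (SE, edgeR adjusted p = 0.427). Over left-out libraries His-GTG-1-1 ranged from −1.003 (without mutant 2) to −0.39 (without mutant 1), and His-GTG-3-1 from −0.64 (without mutant 3) to −0.12 (without mutant 1). Counts of 10 to 29 per library limit what can be seen for this row: a count of 10 carries an exact Poisson 95% interval of 4.80 to 18.4, for counting error only.

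Whether the cerebrum isodecoders passed changed with the scaling. Scaled to the mitochondrial tRNA total, which shifts the median of all rows from −0.03 to −0.41 and at which 111 of 208 rows passed, the 3 isodecoders lay at −1.08 (His-GTG-1-1, edgeR adjusted p = 0.0103), −0.41 (His-GTG-2, adjusted p = 0.0416) and −0.77 (His-GTG-3-1, adjusted p = 0.0478). Relative to that median, His-GTG-2 was level with the other tRNAs. Scaled to the spike-in row, with a median of −0.36 and 74 of 208 rows passing, His-GTG-1-1 passed at −1.04 (edgeR adjusted p = 0.00768), and the others did not. The total did not pass on either scale (−0.42, edgeR adjusted p = 0.0511, and −0.34, edgeR adjusted p = 0.321).

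In cerebellum the total was 3753 ± 613 CPM (SD, n = 5) in mutants and 3326 ± 431 CPM (SD, n = 6) in wildtype. Mutant 4 was the highest library and wildtype 3 the lowest, and the groups overlapped. The log2 difference was 0.06 ± 0.14 (SE, edgeR adjusted p = 0.798), in a comparison where 0% of 71 anticodon totals passed with edgeR and 3 passed with DESeq2. Without mutant 4 the difference was −0.06. Wildtype cerebellum is the group whose high level chose the family, and that choice can pull genotype differences in cerebellum downward, for the total and its isodecoders.

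The isodecoders of cerebellum gave 0 calls of 3 as well, against 2.48% of 202 rows (5 rows with edgeR, 23 with DESeq2 and 40 at an unadjusted p under 0.05). His-GTG-2 differed by 0.12 ± 0.13 (SE, edgeR adjusted p = 0.691), His-GTG-3-1 by 0.11 ± 0.20 (SE, edgeR adjusted p = 0.899) and His-GTG-1-1 by −0.14 ± 0.20 (SE, edgeR adjusted p = 0.809). Scaled to the mitochondrial total or the spike-in, His-GTG-2 and His-GTG-3-1 lay below 0, as did the medians of all rows at −0.37 and −0.59. On the spike-in scale, where 83 of 202 rows passed, His-GTG-1-1 did so at −0.69 (edgeR adjusted p = 0.0456).

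Within depth classes of cerebellum, the total was 3428 CPM in the single shallow mutant and 3291 ± 473 CPM (SD, n = 5) in the shallow wildtype libraries. In the deep class it was 3835 ± 676 CPM (SD, n = 4) in mutants and 3502 CPM in the single wildtype library. Both single values lay inside the range of the other genotype. With depth class as a covariate the difference was −0.03 (edgeR adjusted p = 0.92).

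The genotype difference of the total did not itself differ detectably between tissues (cerebellum minus cerebrum, 0.19 ± 0.22 SE on the log2 scale, edgeR adjusted p = 0.872), where 1.39% of anticodon totals passed. The isodecoders gave 0 of 3, against 4.90% of 204 rows: 0.55 ± 0.41 (SE) for His-GTG-1-1, 0.14 ± 0.22 for His-GTG-2 and 0.49 ± 0.38 for His-GTG-3-1. Their edgeR adjusted p-values ran from 0.589 to 0.826. For the rare rows the SE leaves room for sizeable positive differences and for smaller negative ones. These values share the wildtype libraries whose levels chose the family, and that choice can pull them downward.

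**Figure D4:**
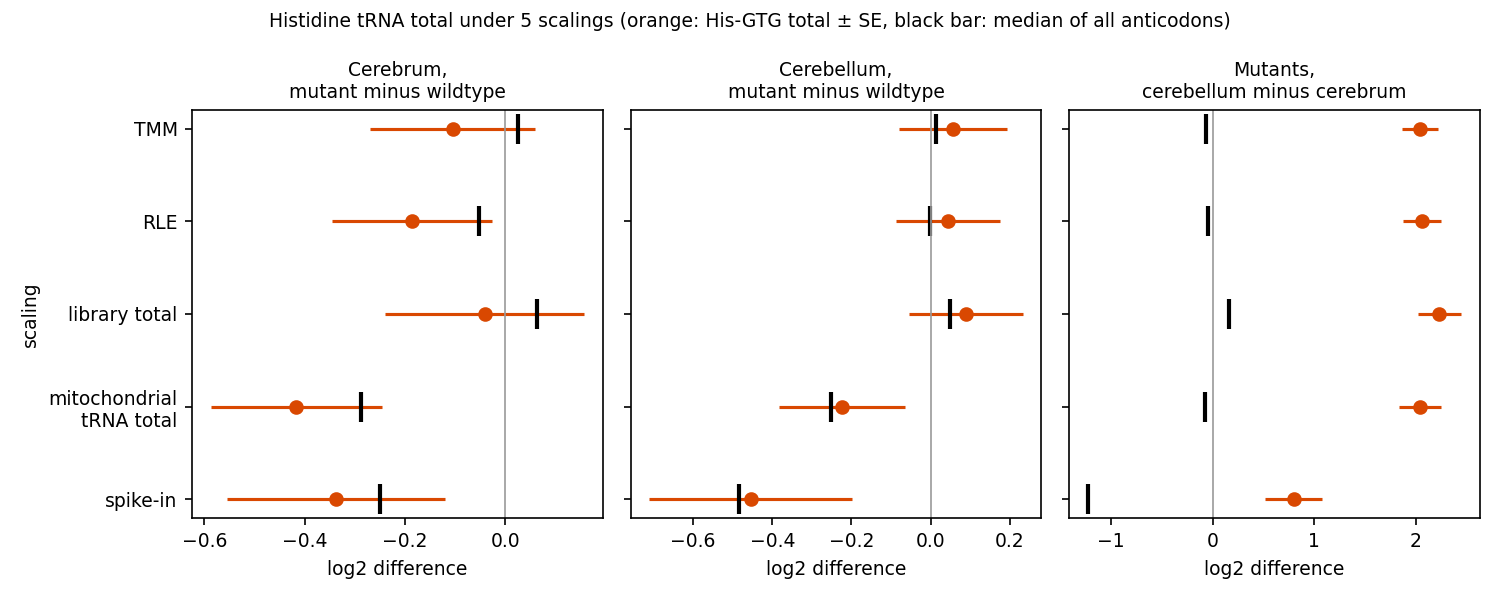
Log2 difference of the nuclear histidine total (x axis, orange, ± SE of the edgeR fit) under 5 scalings (y axis), with the median of all anticodon totals as a black bar, for genotype in cerebrum (left), genotype in cerebellum (middle) and tissue in mutants (right). Under mitochondrial and spike-in scaling the genotype values lie at −0.42 and −0.34 in cerebrum and at −0.22 and −0.45 in cerebellum. The medians fall below 0 there as well. The tissue value stays above its median under each scaling.

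The mitochondrial histidine tRNA, which RNA polymerase III does not make, was also higher in cerebellum. In mutant cerebrum it stood at 2438, 2506, 2389 and 2358 CPM, and in mutant cerebellum at 7131, 4828, 6020.4, 5461 and 5858 CPM. No library overlapped between the tissues, which was not counted for other rows. The shallow cerebellum mutant 1, which has the highest mitochondrial share, was the highest. The difference was 1.27 ± 0.16 (SE) on the log2 scale (edgeR adjusted p = 6.39e-08). Scaled to the mitochondrial total it was 1.35. Scaled to the spike-in row it was 0.18 (edgeR adjusted p = 0.494), which did not pass, beside a median of −1.09 over all rows.

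Between genotypes, mitochondrial His-GTG differed by 0.23 ± 0.15 (SE, edgeR adjusted p = 0.311) in cerebrum and by 0.26 ± 0.11 (SE, edgeR adjusted p = 0.177) in cerebellum, and with mitochondrial scaling both values were negative (−0.16 and −0.12). Without cerebrum wildtype 2, the highest wildtype library at 2892 CPM, it passed in cerebrum at 0.37 (edgeR adjusted p = 0.0439).

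Histidine tRNA belongs to the nuclear tRNAs in which the wobble guanosine is exchanged for the modified base queuosine, together with tyrosine (GTA), asparagine (GTT) and aspartate (GTC) tRNAs. Most of those did not stand higher in cerebellum. Of 10 other queuosine-family rows tested between mutant tissues, 1 was higher in cerebellum, 4 were lower and 5 did not pass, with a median of −0.20 beside −0.01 over all rows, of which 35.8% were higher and 36.8% lower. Asn-GTT-3 was lower by 0.88 ± 0.14 (SE, edgeR adjusted p = 3.30e-06), Asp-GTC-2-1 was at −0.81 ± 0.18 and Asp-GTC-1 at −0.66 ± 0.18. Tyr-GTA-2-1 was lower as well, at −0.43 ± 0.15 (SE, edgeR adjusted p = 0.00904), and Tyr-GTA-4-1 was the row that was higher, at 0.27 ± 0.12 (SE, edgeR adjusted p = 0.0458), a call lost without cerebrum mutant 2 or 3 or cerebellum mutant 2 or 3, with sex as a covariate and among deep libraries only. Scaled to the spike-in row, all 10 were lower. On that scale 150 of 204 rows passed in either direction, and the median over all rows was −1.09.

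Between genotypes, 2 of 11 other queuosine-family rows fell in mutant cerebrum, Tyr-GTA-1 by 0.63 on the log2 scale (edgeR adjusted p = 0.0053) and Tyr-GTA-5-1 by 0.46 (edgeR adjusted p = 0.0318), and 0 rose, with a median of −0.01 beside −0.03 over all rows, of which 11.5% fell. Without cerebrum mutant 3 or 4, or without any of cerebrum wildtype 1 to 4, only 1 of these rows passed. With RLE, with library totals and in the joint fit, only 1 queuosine-family row was lower as well. Counted with the histidine rows, the list had 2 of 14 lower and 0 higher on the TMM scale. It had 9 lower with mitochondrial scaling and 5 lower with spike-in scaling. Of all 208 rows, 111 and 74 passed on those scales, counted in either direction. In cerebellum 0 of 11 passed. The difference of genotype effects between tissues passed for Tyr-GTA-1 (0.74 ± 0.18 SE, edgeR adjusted p = 0.0118) and for none of the other 9. Scaled to the spike-in row, none of them passed, and 0 of all rows tested did.

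Outside the family, the nuclear rows whose level followed the histidine total most closely over all 21 libraries were Val-AAC-5-1 (Pearson r = 0.982, Spearman rho = 0.919), Arg-CCT-1-1 (r = 0.951, rho = 0.831) and Gly-GCC-2 (r = 0.951, rho = 0.712), of 179 rows compared on log2 CPM. These libraries share tissue and depth classes, so the likeness describes mostly the step between tissues. After each group's mean was subtracted, the closest were Val-CAC-2 (r = 0.90), Val-CAC-4-1 (r = 0.789) and Val-AAC-5-1 (r = 0.768), all of them valine tRNAs. Val-AAC-5-1, on both lists, stood at 198 ± 31.4 CPM (SD, n = 4) in mutant cerebrum and at 537 ± 53.8 CPM (SD, n = 5) in mutant cerebellum. Mitochondrial His-GTG followed the nuclear total over all libraries (r = 0.936) but much less closely after group means were subtracted (r = 0.348, rho = 0.0325). Among themselves, after the same subtraction, the isodecoders correlated at r = 0.505 to 0.624 over 21 libraries.

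In the authors' deposited table of anticodons for cerebrum, His-GTG stood at −0.44 (mutant over wildtype, adjusted p = 0.0232), where 33 of 72 anticodons passed and the median nuclear anticodon was at −0.37. The authors' deposited table of isodecoders for cerebrum runs the other way, wildtype over mutant, as its correlation of −0.9999 with the log2 differences computed here shows. Turned to mutant over wildtype, that authors' deposited table gave −1.10 for His-GTG-1-1 (adjusted p = 0.0126), −0.44 for His-GTG-2 (adjusted p = 0.0208) and −0.79 for His-GTG-3-1 (adjusted p = 0.0539), beside a nuclear median of −0.48 and 121 of 209 rows that passed. In the authors' deposited tables for cerebellum none of the histidine rows passed, where 51 of 208 isodecoder rows and 13 of 71 anticodons did. His-GTG stood at −0.18 in that authors' deposited table of anticodons (adjusted p = 0.525), beside a nuclear median of −0.33. No source used here says how the authors scaled their libraries.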

How the data were processed

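Raw counts per tRNA in 21 libraries came from 2 tables deposited by the authors, whole numbers without normalization. The submitters' processing notes name mm10 and the tools Bowtie2, cutadapt, DESeq2 and featureCounts, without versions or settings. The authors' deposited tables also hold log2 fold changes with their standard errors, p-values and adjusted p-values, a test score, and a mean signal named baseMean, per the file headers. The spike-in row (0.222% to 1.08% of counts) entered neither library sizes nor tests.

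Tests used edgeR 4.0.16 (limma 3.58.1, R 4.3.3): TMM, filterByExpr with a minimum count of 10, robust quasi-likelihood F tests, two-sided, Benjamini-Hochberg adjustment over all rows or all anticodon totals, threshold 0.05. SE was taken as the absolute log2 difference divided by √F. Genotype was fitted within each tissue, and all 21 libraries with the 204 rows in both tables were fitted for tissue and for the difference between tissues. CPM values come from that common scale, with TMM factors from isodecoder rows. Anticodon totals were fitted with TMM factors from the anticodon totals, and genotype fits used the libraries of a single tissue. Fitted values therefore need not equal ratios of CPM means. Between mutant tissues the fitted total was 4.12-fold and the ratio of CPM means 3.84. In cerebrum the sign of the genotype difference is not the same on both. Shares were compared with exact permutation tests. Members, lists and tests were chosen with earlier results of these data known. Named rows were the 3 isodecoders, their total, mitochondrial His-GTG, up to 4 other queuosine-family rows that passed per comparison, and the 3 rows most like the family on each measure; Val-AAC was named after its value was seen. Fits were tested on simulated data. Alternatives were RLE, library totals, mitochondrial and spike-in scaling, no filter, DESeq2 1.42.0, sex, a joint fit, depth class, leaving out each library and a replicate block; deep libraries alone was chosen after seeing the data. Replicates differed by more than sampling noise (chi-square per degree of freedom of at least 44.3).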

Additional observations from a re-analysis of the deposited data

Results flagged for a closer look

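In a check of 32 sets of values for a library standing apart from its group, 2 were picked out, and chance alone picks out about 1 in 20. His-GTG-3-1 was highest in cerebellum mutant 3, at 32.6 CPM from 182 counts, with the other 4 mutants between 17.5 and 21.9 CPM. The share of His-GTG-1-1 in the family was highest in cerebrum wildtype 4, at 1.23% from 55 counts, with the next library of that group far below.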

How the results depend on the processing

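Across all alternatives run, the nuclear histidine total and its 3 isodecoders stayed higher in mutant cerebellum than in mutant cerebrum and passed the test; leaving out each library moved the total between 1.90 and 2.16 on the log2 scale. The wildtype tissue difference moved to 2.10 with library totals and to 0.91 with spike-in scaling. The genotype totals passed under no alternative, and their signs were not stable: cerebellum turned to −0.22 with mitochondrial scaling, −0.45 with spike-in scaling and −0.026 with depth class as a covariate, and the difference between tissues to −0.12 with spike-in scaling. Leaving out each library gave −0.21 to 0.052 for the cerebrum total (0.052 without cerebrum mutant 1), −0.060 to 0.14 for the cerebellum total (−0.060 without cerebellum mutant 4) and −0.0593 to 0.0593 percentage points for the cerebellum share of His-GTG-3-1 (−0.0593 without cerebellum mutant 3, −0.0097 without wildtype 2).

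Among single rows, His-GTG-2 in cerebrum turned to 0.036 with RLE or DESeq2, 0.043 in the joint fit and to 0.0037 without the filter, and ranged from −0.14 to 0.16 over left-out libraries. Mitochondrial and spike-in scaling turned mitochondrial His-GTG to −0.16 and −0.093 in cerebrum and to −0.12 and −0.29 in cerebellum, His-GTG-2 in cerebellum to −0.22 and −0.45, and His-GTG-3-1 in cerebellum to −0.22 and −0.43. The last was −0.0032 with depth class and −0.023 to 0.25 over left-out libraries. For the difference between tissues, spike-in scaling gave −0.12 for His-GTG-2 and −0.20 for mitochondrial His-GTG, and left-out libraries gave −0.023 to 0.22 and −0.13 to 0.075. Beyond the shifts of all rows given with the scalings, the cause was not tested. In cerebellum 5 rows passed with edgeR and 23 with DESeq2, 53 with mitochondrial and 83 with spike-in scaling; in cerebrum the counts were 41, 52, 111 and 74.

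Replicate numbers were not taken to pair the libraries. Same-numbered deviations correlated at over 0.1 in 2 of 4 cerebrum pairs and 2 of 5 cerebellum pairs. Across tissues they did so in 1 of 4 mutant pairs and 4 of 6 wildtype pairs. No comparison had every pair over 0.1, but that rule cannot exclude pairing. Same-numbered libraries of a genotype had the same sex in both tissues, so they may come from the same animal, which the labels do not say. The main tissue tests treated them as independent. With a replicate block the totals were −0.17 in cerebrum, 0.02 in cerebellum, 2.11 between mutant tissues and 0.27 for the difference between tissues, the queuosine list in cerebrum had 1 row of 14 higher and 4 lower, His-GTG-1-1 in cerebrum passed at −0.75 (edgeR adjusted p = 0.0404), and mitochondrial His-GTG turned to −0.040 for the difference between tissues. Blocked share differences were 1.70, −1.95 and 0.254 percentage points, where 4 pairs allow no exact permutation p below 0.125. Counts of 10 to 29 for His-GTG-3-1 in cerebrum limit its precision.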
